A study of Homo sapiens with 3 samples.

Results

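The 10 genes described here belong to the Hippo pathway: the angiomotin scaffolds AMOTL2, AMOTL1 and AMOT, the kinase LATS2, the coactivators YAP1 and WWTR1 (whose protein is TAZ), their DNA-binding partner TEAD1, and the YAP target genes CCN1, CCN2 and ANKRD1. They were taken as every probe set that the array annotation assigns to exactly 1 of these genes, with no filter on expression, which gave 23 of the 54613 probe sets on the array. The set was chosen by the log2 values of AMOTL2, which stood lower with 1 of the UHRF1 hairpins and not with the other, so its values below are a description with no test. RNA came from HCT116, a human colorectal carcinoma line with epithelial character. Cells were infected with lentivirus carrying UHRF1 shRNA-2 (hairpin 2, 1 array), UHRF1 shRNA-5 (hairpin 5, 1 array) or a scrambled shRNA (the control, 1 array), and all of them were kept under puromycin for 6 days before harvest. UHRF1 binds hemimethylated DNA and histone H3 and helps to copy DNA methylation onto new strands, and the arrays were made to find transcripts that depend on it.

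In the Hippo pathway, STK3 and STK4 activate the kinases LATS1 and LATS2, which phosphorylate YAP1 and TAZ and keep them out of the nucleus. Unphosphorylated YAP1 and TAZ enter the nucleus, bind TEAD factors and switch on genes for matricellular proteins and for brakes on the pathway itself. Angiomotins hold YAP1 at cell junctions and promote its phosphorylation, and AMOTL2 and LATS2 are at the same time transcribed in response to YAP1, which makes both part of a negative feedback. In the intestine YAP1 is known for its role in regeneration after injury and in colorectal tumours.

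TEAD factors recognise the letters GGAATG, or CATTCC on the other strand. The stretch upstream of the start is shown for 3 known YAP targets, AMOTL2, CCN2 and ANKRD1, each of which carries these letters there. CCN2 and ANKRD1 gave readings near background, as given below, so their matches cannot be set against a response on the arrays. The sequences are RefSeq's, build GRCh38.p14, from 250 bases before the annotated transcription start up to that start, read 5′ to 3′ on the gene's own strand, with each match in capitals. AMOTL2 lies on the minus strand at chr3:134374448-134374697, CCN2 on the minus strand at chr6:131951373-131951622, and ANKRD1 on the minus strand at chr10:90921088-90921337.
AMOTL2: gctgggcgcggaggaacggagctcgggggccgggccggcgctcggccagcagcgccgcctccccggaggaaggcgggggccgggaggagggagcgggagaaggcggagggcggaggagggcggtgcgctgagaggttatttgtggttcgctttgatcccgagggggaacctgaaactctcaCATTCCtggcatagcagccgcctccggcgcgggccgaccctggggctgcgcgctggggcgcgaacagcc
CCN2: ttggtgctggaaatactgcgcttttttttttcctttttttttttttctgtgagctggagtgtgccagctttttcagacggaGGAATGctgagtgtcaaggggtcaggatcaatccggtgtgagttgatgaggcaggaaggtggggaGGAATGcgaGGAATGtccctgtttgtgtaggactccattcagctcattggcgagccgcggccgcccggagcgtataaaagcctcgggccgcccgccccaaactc
ANKRD1: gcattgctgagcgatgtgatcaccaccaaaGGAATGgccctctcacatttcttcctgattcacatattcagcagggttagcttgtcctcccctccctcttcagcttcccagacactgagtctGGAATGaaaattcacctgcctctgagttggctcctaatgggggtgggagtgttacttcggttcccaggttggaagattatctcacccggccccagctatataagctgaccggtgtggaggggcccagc

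The AMOTL2 stretch held 1 match, at position −69 from the start, and the other annotated AMOTL2 start had none in its window. The CCN2 stretch held 3, at −169, −104 and −95, and the ANKRD1 stretch 2, at −220 and −128. Windows of 300 bases, 250 before and 50 after a start, were available for 8 of the 10 genes. Single matches were also present in the windows of YAP1, at −162, and of LATS2, at position 10 after its start, and none in those of AMOTL1, AMOT and WWTR1. Among all 35116 such windows, 14.03% held at least 1 match on either strand, 1.37% at least 2 and 0.128% at least 3. A match of 6 letters describes the sequence and does not show that a factor binds there.

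Each array gave log2 expression values made with RMA, and the array medians lay between 2.98 and 3.04. UHRF1 read 6.20 with hairpin 2 and 6.67 with hairpin 5, against 8.54 on the control array. The interferon-induced gene IFIT1 read 10.01 with hairpin 2 and 5.41 with hairpin 5, against 3.22 on the control array, and was highest by far with hairpin 2. Of the epithelial colorectal markers, 9 of 10 averaged at least 2.90 over the arrays, the 40th percentile of the 41091 probe sets assigned to 1 gene. KRT18 (12.15, 12.48 and 12.26 with hairpin 2, hairpin 5 and the control) and EPCAM (10.13, 9.93 and 10.23) were among them, and LGALS4 was the one below. VIL1 (3.12, 3.11 and 3.13) and CEACAM5 (3.54, 3.97 and 3.98) were also among the 9 but read much lower. Passing that level does not show expression. By mean over the hairpins, the epithelial markers KRT8, CDH1 and CDX2 differed most, none of them 2-fold. With hairpin 2 and hairpin 5, KRT8 was 0.41 and 0.86 above the control, CDH1 0.98 and 0.17, and CDX2 0.35 and 0.43. Averaged over all their probe sets, CDH1 differed by 0.47 and 0.14 and CDX2 by 0.105 and 0.08. Over the 9 epithelial markers the medians were −0.01 and −0.01, with 4 lower and 3 higher on both arrays. Of all 14103 genes whose brightest probe set averaged at least the 40th percentile, 31.5% were lower and 29.6% higher on both. Of the leukocyte markers 0 of 4 reached the 40th percentile. Among markers of other cell types 3 of 5 fibroblast genes reached it, the highest being COL1A1 (6.39, 5.75 and 5.82), as did 3 of 5 endothelial genes, none of which read above 3.604. With 1 array per condition a difference has no replicate check, and what belongs to a hairpin, its culture or its array cannot be told apart.

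AMOTL2, a scaffold that links angiomotin complexes to cell junctions and actin, was lower with hairpin 2, while hairpin 5 matched the control. Its only probe set, 203002_at, read 4.38 with hairpin 2 and 6.12 with hairpin 5, against 6.105 on the control array. The hairpin 2 array therefore stood alone at the low end, 3.31-fold below the control (−1.73 on the log2 scale), while hairpin 5 differed by 0.01. Of all 41091 probe sets with 1 gene, 0.265% were at least 2-fold lower with hairpin 2, and AMOTL2 ranked 7 from the lowest. Between the hairpins AMOTL2 was 3.34-fold lower with hairpin 2 (−1.74), which ranked 1 from the lowest, in a comparison in which 0.0852% of probe sets were at least 2-fold lower. These ranks describe the value for which AMOTL2 was chosen. Its mean difference over the hairpins was −0.86 ± 1.23 (SD, n = 2 hairpins). In a culture, fewer cells with a transcript and less of it per cell cannot be told apart. IFIT1 read highest on the same hairpin 2 array. It also stood above the control with hairpin 5 (5.41 against 3.22), where AMOTL2 differed by 0.01. The part of IFIT1 in the AMOTL2 value was not tested.

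AMOTL1 and AMOT, the other angiomotins, did not show the drop of AMOTL2. The brightest AMOTL1 probe set, 225450_at, read 6.07 with hairpin 2 and 6.14 with hairpin 5, against 6.15 on the control array, so the arrays lay within 0.1 of each other. Another AMOTL1 probe set, 225459_at, read 3.16 with hairpin 2 and 3.03 with hairpin 5, against 2.61 on the control array. It was higher with both (0.56 and 0.42), but the control reading lay near that array's 25th percentile (2.565) and may be background. The remaining AMOTL1 probe sets, 228840_at and 235277_at, differed by 0.01 and 0.32 with hairpin 2 and by 0.27 and 0.15 with hairpin 5. Of these, 235277_at averaged under the 40th percentile. AMOT, which in its long form binds YAP1, has 1 probe set, 209521_s_at, that read 2.55 with hairpin 2 and 2.59 with hairpin 5, against 2.71 on the control array. Those readings are close to the 25th percentile of the arrays (2.54 to 2.59) and may be background, since the table carries no detection calls.

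**Figure D1:**
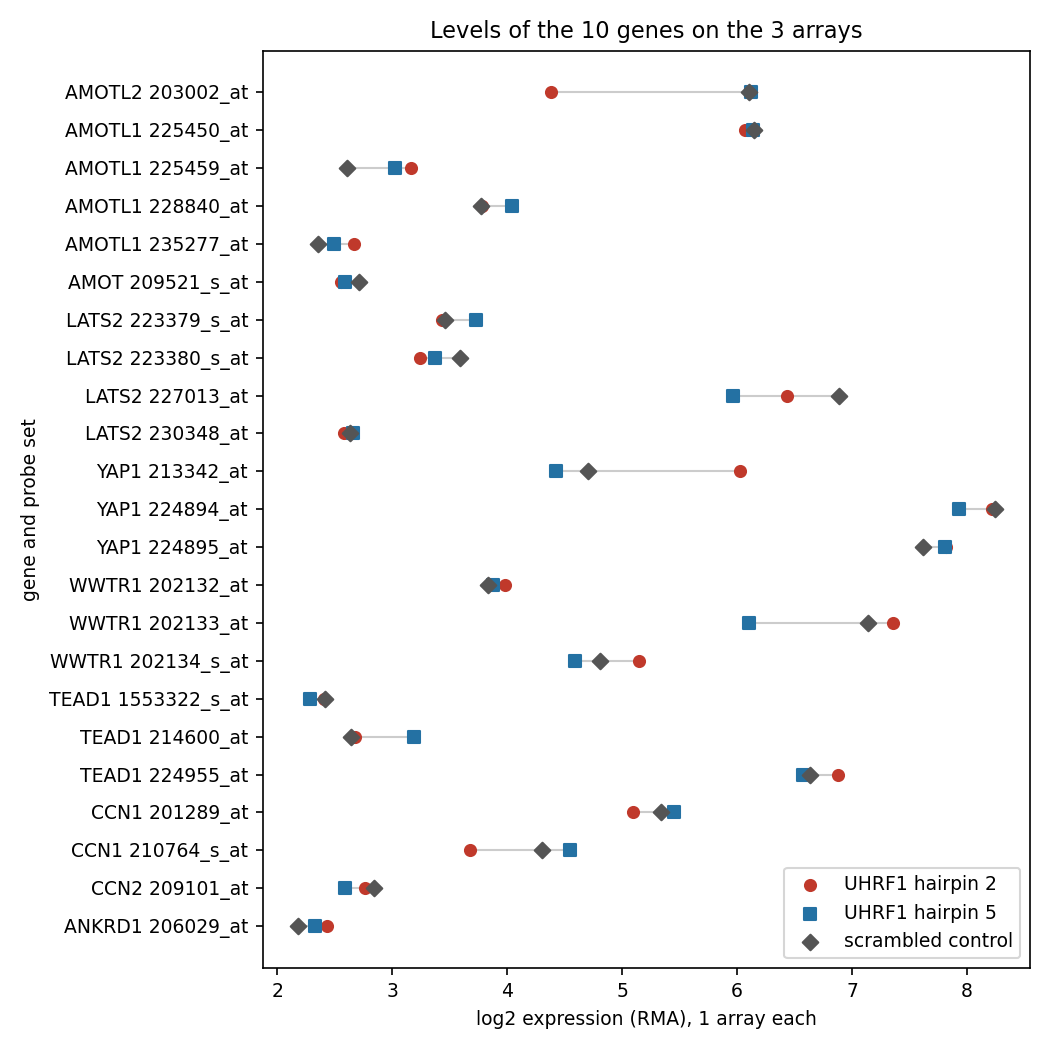
Log2 expression (horizontal axis) of the 23 probe sets of the 10 genes (rows), with 1 point for each array: hairpin 2, hairpin 5 and the scrambled control. Rows are different probe sets and their levels are not comparable with each other. AMOTL2 reads 4.38 with hairpin 2 and 6.12 with hairpin 5, against 6.105 on the control array, and YAP1 213342_at and WWTR1 202133_at are the other rows in which arrays lie over 1 log2 unit apart.

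LATS2, the kinase that phosphorylates YAP1 and is itself a YAP target, was lower with both hairpins at its brightest probe set. That probe set, 227013_at, read 6.435 with hairpin 2 and 5.965 with hairpin 5, against 6.88 on the control array. Both hairpin arrays lay below the control (−0.45 and −0.92), with a mean difference of −0.68 ± 0.33 (SD, n = 2 hairpins), and neither reached 2-fold. The other LATS2 probe sets did not show a drop of that size. 223379_s_at differed by −0.03 with hairpin 2 and 0.27 with hairpin 5, 223380_s_at by −0.35 and −0.21, and 230348_at, which averaged under the 40th percentile, by −0.05 and 0.03. Averaged over its 4 probe sets, the dim ones included, LATS2 differed by −0.22 with hairpin 2 and −0.21 with hairpin 5.

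YAP1, the coactivator that LATS kinases restrain, gave different pictures at its 3 probe sets. 224894_at read 8.22 with hairpin 2 and 7.94 with hairpin 5, against 8.24 on the control array, and 224895_at read 7.815 and 7.81, against 7.62. At both of these the arrays lay within 0.31 of the control. 213342_at read 6.025 with hairpin 2 and 4.42 with hairpin 5, against 4.70 on the control array. There hairpin 2 stood alone at the high end, 2.50-fold above the control (1.32), while hairpin 5 differed by −0.28. At least 2-fold higher values with hairpin 2 were seen at 0.638% of probe sets with 1 gene, and this was the 1 probe set of the 23 among them. Since the 2 brighter YAP1 probe sets differed by −0.02 and 0.20 with hairpin 2, the higher reading was not shared across the gene.

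WWTR1, which encodes TAZ, the paralog of YAP1, was lower with hairpin 5 at its brightest probe set. 202133_at read 7.35 with hairpin 2 and 6.10 with hairpin 5, against 7.14 on the control array. Hairpin 5 was 2.05-fold below the control (−1.04) and hairpin 2 slightly above it (0.22). At least 2-fold lower values with hairpin 5 were seen at 0.830% of probe sets with 1 gene, and at least 2-fold higher ones at 0.153%, and of the 23 probe sets 1 and 0 were among them. With cyclic loess scaling the WWTR1 difference was −0.94 and no longer 2-fold. 202134_s_at read 5.14 with hairpin 2 and 4.59 with hairpin 5, against 4.81 on the control array, the same order of arrays over a narrower range. 202132_at read 3.98 and 3.88, against 3.835. Between the hairpins, YAP1 213342_at (1.60) and WWTR1 202133_at (1.25) were at least 2-fold higher with hairpin 2, as were 1.34% of probe sets with 1 gene.

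TEAD1, a DNA-binding partner of YAP1 and TAZ, stayed close to the control at its brightest probe set, 224955_at, which read 6.88 with hairpin 2 and 6.575 with hairpin 5, against 6.63 on the control array. 214600_at read 2.675 with hairpin 2 and 3.18 with hairpin 5, against 2.64 on the control array, a difference of 0.545 with hairpin 5, at a level where background cannot be separated from expression. 1553322_s_at read between 2.28 and 2.41 on all 3 arrays.

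CCN1, a secreted matricellular protein and one of the best known YAP targets, was lower with hairpin 2 and slightly higher with hairpin 5 at both of its probe sets. 210764_s_at read 3.67 with hairpin 2 and 4.54 with hairpin 5, against 4.31 on the control array. 201289_at read 5.10 with hairpin 2 and 5.45 with hairpin 5, against 5.34 on the control array. Hairpin 2 was thus the lowest array for AMOTL2 and for both CCN1 probe sets, but the CCN1 differences were smaller, −0.63 and −0.24, and did not reach 2-fold. Between the hairpins CCN1 differed by −0.87 at 210764_s_at, which ranked 76 from the lowest of the 41091. At the brighter 201289_at it differed by −0.35, which ranked 3535. Directions at both probe sets held with median centring and with cyclic loess.

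CCN2, a matricellular protein related to CCN1, read 2.76 with hairpin 2 and 2.58 with hairpin 5, against 2.84 on the control array, at its only probe set, 209101_at. ANKRD1, a nuclear ankyrin repeat protein, read 2.43 with hairpin 2 and 2.33 with hairpin 5, against 2.175 on the control array, at 206029_at. Both lay under the 40th percentile on average, so these genes, with 3 and 2 of the TEAD matches shown above, gave readings that cannot be separated from background on any of the arrays.

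The median over the 23 differences was 0.00 for hairpin 2 and 0.01 for hairpin 5, and over all 41091 probe sets with 1 gene it was 0.00 and 0.01. Of the 23, 16 averaged at least the 40th percentile and 7 did not. Differences ran from −1.73 to 1.32 with hairpin 2 and from −1.04 to 0.545 with hairpin 5. In limma's comparison of both hairpins with the control, adjusted over 41091 probe sets, 0 of the 23 passed an adjusted p of 0.05, as did 0% of all. The adjusted p was 0.9998 for each of the 23. At an unadjusted p under 0.05 there was 1 of the 23, AMOTL1 225459_at, and 1219 of all. Limma with an intensity trend and limma with a robust prior also called 0. This fit treats the hairpins as 2 replicates of UHRF1 depletion, so a gene that differs with 1 hairpin, such as AMOTL2, has a large spread in it.

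**Figure D2:**
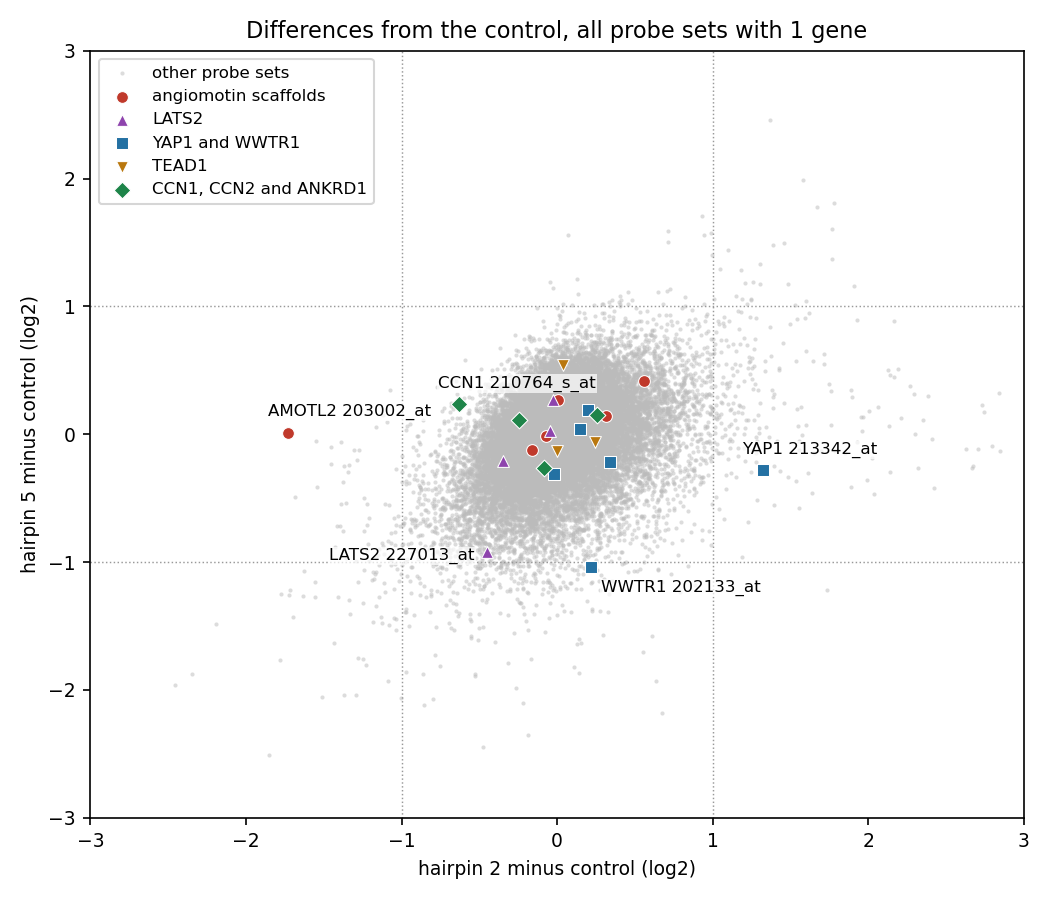
Difference from the control in log2 units with hairpin 2 (horizontal axis) and with hairpin 5 (vertical axis), with 1 grey point for each probe set of 1 gene and coloured symbols for the 23 probe sets of the 10 genes. Dotted lines mark 2-fold, 15 probe sets lie outside the axes, and both axes share the control array. AMOTL2 lies at −1.73 and 0.01, left of the 2-fold line. YAP1 213342_at lies past a 2-fold line at 1.32 with hairpin 2, and WWTR1 202133_at just past one at −1.04 with hairpin 5.

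The pathway around these genes was described with 5 lists, read at the brightest probe set of each gene where that averaged at least the 40th percentile. All 14103 such genes had medians of 0.01 for hairpin 2 and −0.03 for hairpin 5. Of these genes 0.503% were at least 2-fold lower and 1.01% higher with hairpin 2, and 1.64% lower and 0.213% higher with hairpin 5. The list medians given below moved with the choice of probe sets, and each is also given over all probe sets of its list. The kinase cassette, 12 of 12 genes, had medians of 0.29 and −0.22, and 0 of its genes were 2-fold from the control with either hairpin. Over all 46 probe sets of this list the medians were 0.08 and −0.04. SAV1, the adaptor of STK3 and STK4, read 6.30 with hairpin 2 and 6.21 with hairpin 5, against 5.835 on the control array. TAOK2, a kinase that activates STK3 and STK4, read 6.14 and 6.06, against 5.67, and STK38, a relative of the LATS kinases, 5.99 and 6.12, against 5.64. At each of these 3 probe sets, picked for their mean over the hairpins, both hairpin arrays were above the control by under 0.5. Of the 12 genes, 5 were above the control on both arrays, 4 were below it on both and 3 were mixed. Of all 14103 genes, 29.6% were above it on both arrays and 31.5% below it on both. Averaged over all its probe sets, SAV1 differed by 0.30 and 0.19, TAOK2 by 0.38 and 0.11 and STK38 by −0.03 and 0.21. LATS1, the other LATS kinase, differed by −0.07 with hairpin 2 and −0.47 with hairpin 5.

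Upstream regulators and junction scaffolds had 15 genes at that level, with medians of 0.05 and 0.06. These were −0.01 and 0.16 with cyclic loess and 0.08 and 0.02 with median centring, and 0.00 and 0.05 over all 53 probe sets. One gene was 2-fold from the control, PTPN14, a phosphatase that binds YAP1 and restrains it and that is also listed as a YAP target. At 226282_at PTPN14 read 5.46 with hairpin 2 and 6.56 with hairpin 5, against 6.795 on the control array. Hairpin 2 was the low array there, as for AMOTL2, at 2.525-fold below the control (−1.34), and hairpin 5 differed by −0.24. The other 3 PTPN14 probe sets, all dimmer, differed by 0.01 to −0.07 with hairpin 2. FAT1, a giant protocadherin, read 10.16 with hairpin 2 and 10.17 with hairpin 5, against 9.64 on the control array. FRMD6, a junction protein that activates the kinase cassette, differed by 0.51 and 0.25 at its brightest probe set and by 1.00 and 0.63 at the other, 225464_at. NF2, the main membrane-associated activator of LATS kinases, differed by 0.00 and 0.09.

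Other TEAD factors and TEAD cofactors had 5 genes at that level, with medians of −0.07 and 0.14, none of them 2-fold from the control. The hairpin 5 median was 0.23 with cyclic loess and turned to −0.085 over all 14 probe sets, where that of hairpin 2 was −0.06. VGLL4, which competes with YAP1 for TEAD factors, read 6.185 with hairpin 2 and 5.24 with hairpin 5, against 5.44 on the control array, and was the only one of the 5 with a difference above 0.5. TEAD4 differed by −0.17 and −0.14 and VGLL1 by −0.07 and 0.37. At a dimmer TEAD2 probe set, 226408_at, the readings were 6.04 with hairpin 2 and 5.59 with hairpin 5, against 5.03 on the control array, while the brightest TEAD2 probe set differed by 0.02 and 0.14.

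The other target genes of a published YAP and TAZ signature, 13 at that level, had medians of −0.29 with hairpin 2 and −0.24 with hairpin 5, beside 0.01 and −0.03 over all genes. Over all 51 probe sets of the list they were −0.08 and −0.035, and with cyclic loess the hairpin 5 median was −0.15. The hairpins share the control array. PTPN14 was the 1 gene at least 2-fold lower with hairpin 2, and NT5E, the ectonucleotidase CD73, the 1 with hairpin 5, where 0.503% and 1.64% of all genes were. NT5E read 7.65 with hairpin 2 and 5.69 with hairpin 5, against 8.13 on the control array, which reverses the order of the hairpins seen for AMOTL2. GADD45A, a stress-induced growth arrest gene that p53 also drives, read 8.86 with hairpin 2 and 8.62 with hairpin 5, against 9.55 on the control array. Among the rest AXL, a receptor tyrosine kinase, differed by −0.51 and −0.38, CRIM1 by −0.60 and −0.04, and F3, tissue factor, by −0.29 and −0.78, while IGFBP3 (0.475 and 0.29) and ASAP1 (0.42 and 0.35) were higher on both arrays. LATS1, NF2, AXL, CRIM1, F3, IGFBP3 and ASAP1, and the markers KRT18, EPCAM, LGALS4, VIL1, CEACAM5, KRT8, CDH1, CDX2 and COL1A1, were named after their values were seen.

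**Figure D3:**
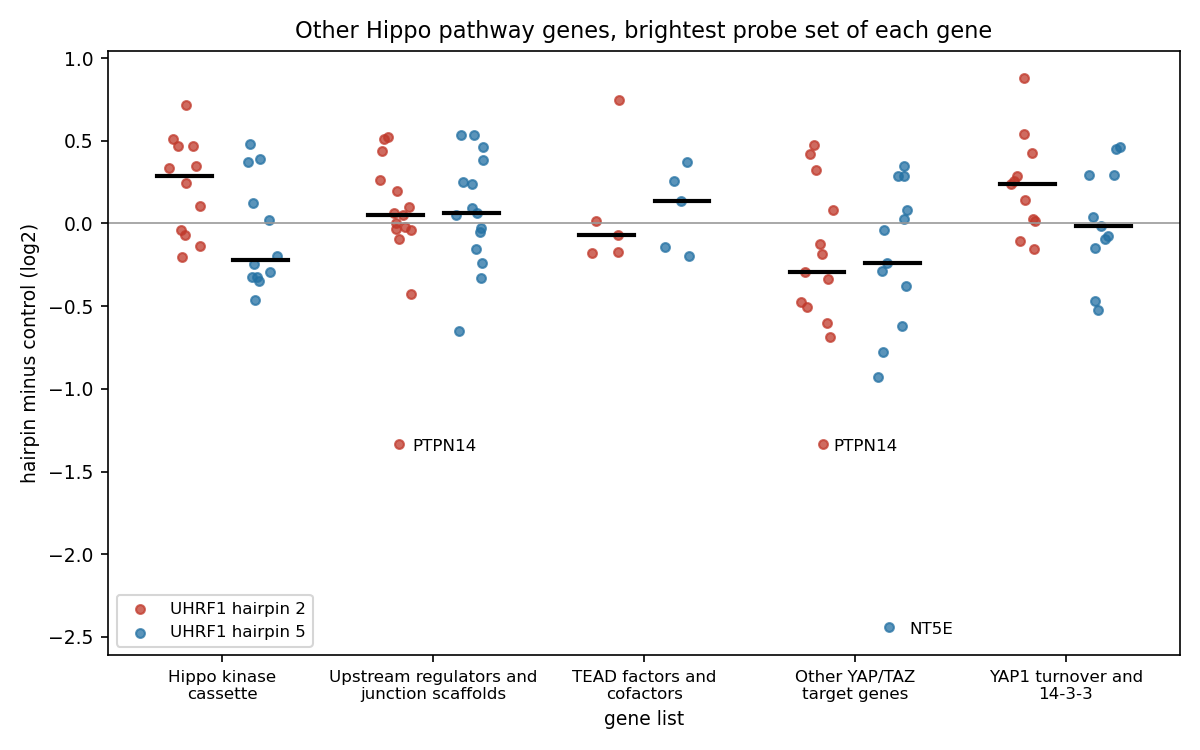
Difference from the control in log2 units (vertical axis) for the genes of 5 pathway lists (horizontal axis), with 1 point for each gene at its brightest probe set, hairpin 2 on the left and hairpin 5 on the right of each list, and black bars for medians. The target genes have medians of −0.29 and −0.24, and PTPN14, which stands in 2 lists, and NT5E lie past 2-fold.

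Over all probe sets of the 5 lists, 192 of 61 genes, 2 were at least 2-fold lower and 4 higher with hairpin 2, and 3 lower and 1 higher with hairpin 5. These were 1.04%, 2.08%, 1.56% and 0.521% of the lists' probe sets, beside 0.265%, 0.638%, 0.830% and 0.153% of all probe sets with 1 gene. NT5E gave 1 of the 2 that were lower with hairpin 2 and 3 of the 3 that were lower with hairpin 5, so these shares rest on few genes. The 4 that were higher with hairpin 2 belonged to FRMD6, TEAD2, YWHAE and YWHAZ, none of them the brightest of its gene, and that of YWHAE was also the 1 that was higher with hairpin 5. Of all probe sets that averaged at least the 40th percentile, the same shares were 0.438%, 1.05%, 1.38% and 0.255%.

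The genes whose pair of differences lay nearest to that of AMOTL2, by Euclidean distance over the 2 differences among 14102 genes at or above the 40th percentile, were ETF1, PDGFRL, COX6C, ALDH9A1 and VAMP7. Their distances ran from 0.19 to 0.44 log2 units. ETF1, the translation termination factor, read 8.17 with hairpin 2 and 9.67 with hairpin 5, against 9.72 on the control array, although its other probe set, 201573_s_at, differed by only −0.115 with hairpin 2. PDGFRL read 4.18 with hairpin 2 and 5.53 with hairpin 5, against 5.63 on the control array. COX6C, a subunit of cytochrome c oxidase, read 10.80 and 12.13, against 12.19. ALDH9A1, an aldehyde dehydrogenase, differed by −1.45 and −0.23, and VAMP7, a vesicle fusion protein, by −1.31 and −0.12. In each of the 5 genes the hairpin 2 array was the low one and hairpin 5 lay within 0.25 of the control. This pattern follows from choosing genes near AMOTL2. Likeness over 3 arrays is a weak measure, and none of the 5 is on the pathway lists.

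**Figure D4:**
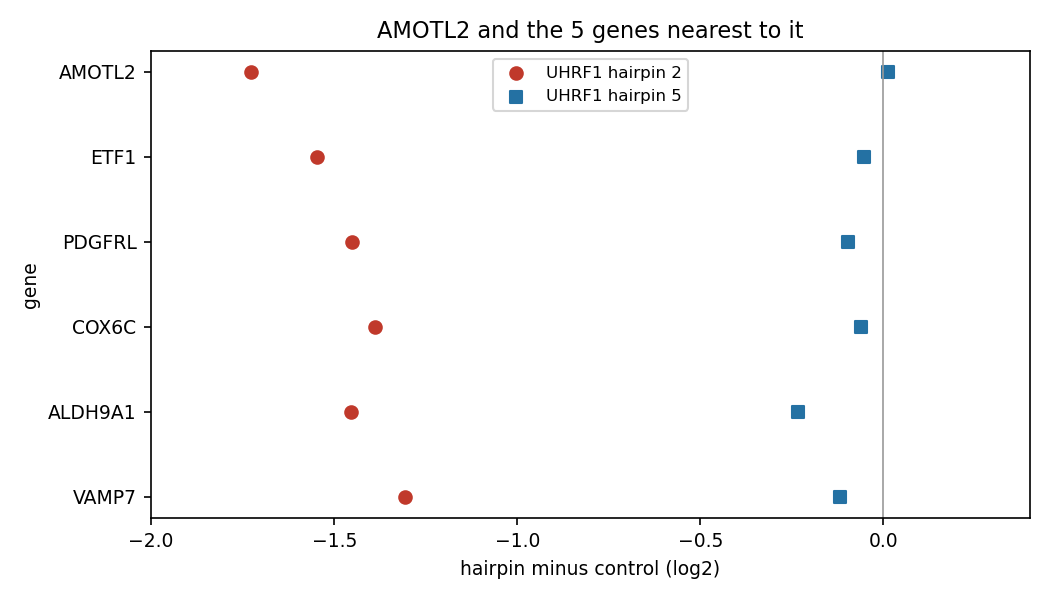
Difference from the control in log2 units (horizontal axis) for AMOTL2 and the 5 genes nearest to it (rows), with circles for hairpin 2 and squares for hairpin 5. Hairpin 2 differences run from −1.73 for AMOTL2 to −1.31 for VAMP7, and hairpin 5 differences from −0.23 to 0.01.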

How the data were processed

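RNA from 3 HCT116 cultures was measured on 3 single-colour Affymetrix arrays. Per the submitters' processing notes, the authors obtained the deposited log2 values by RMA in Affymetrix Expression Console. Their versions and settings are not given in the sources used here, and base 2 was read off the values' range. Centring is not stated, and there are no detection calls. Probe sets were named through the platform annotation: 41091 of 54613 had 1 gene, 1801 several and 11721 none. Symbols were checked by gene identifier in RefSeq (GRCh38.p14), which changed 0.

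Differences are hairpin minus control. Limma 3.58.1 (R 4.3.3; lmFit, eBayes, two-sided, Benjamini-Hochberg over 41091 probe sets) compared both hairpins with the control. It has 1 residual degree of freedom, moderated to 3.71, and takes the single control to vary as the hairpins do. An exact permutation over 3 arrays cannot go below p = 0.333. Counts use 2-fold. The number of arrays limits the precision.

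The genes and lists were chosen with earlier results of these data known. Named genes were all members, UHRF1, IFIT1, the 3 genes of each pathway list with the largest mean difference, pathway genes 2-fold from the control, and the 5 nearest to AMOTL2; others are marked where they appear. Alternatives were scaling, an expression filter, probe set choice, fold thresholds, limma settings and leaving out a hairpin.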

Additional observations from a re-analysis of the deposited data

How the results depend on the processing

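AMOTL2 kept its drop with hairpin 2 under median centring (−1.70) and cyclic loess (−1.79), and its difference between the hairpins was −1.67 and −1.86. Its mean over the hairpins ran from −1.73 to 0.01 when either hairpin was left out, which leaves a value with no test. Its difference with hairpin 5 was −0.03 with median centring and 0.08 with cyclic loess. Of the 23 probe sets, at 1.5-fold 2 were lower with hairpin 2 and 2 with hairpin 5; at 3-fold 0 were higher with hairpin 2 and 0 lower with hairpin 5; with the brightest probe set of each gene 0 were higher with hairpin 2; and with cyclic loess 0 were lower with hairpin 5. For the pathway lists, 1.5-fold gave 9 lower and 12 higher with hairpin 2 and 11 lower and 5 higher with hairpin 5 (4.69%, 6.25%, 5.73% and 2.60% of their probe sets), where 1.62%, 3.21%, 4.51% and 1.74% of all probe sets with 1 gene were past 1.5-fold. There 3-fold gave 0 lower and 0 higher with hairpin 2, and 2 lower and 0 higher with hairpin 5. Of all probe sets with 1 gene, 0.0316%, 0.185%, 0.0925% and 0.0219% were past 3-fold, in the same order. The brightest probe sets of the lists gave 1 lower and 0 higher with hairpin 2 and 1 lower and 0 higher with hairpin 5. The median over the 23 probe sets was 0.022 and −0.030 with median centring (hairpin 2, then hairpin 5), 0.012 and 0.039 with cyclic loess, −0.077 and −0.091 at the brightest probe sets, and 0.00 for hairpin 5 with the expression filter. Limma called 0 probe sets under every setting run, with 684 (expression filter) to 1595 (all 54613 probe sets) at an unadjusted p under 0.05. No paired analysis was possible because there is 1 control array. The lone control and the lack of detection calls limit every value.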

Other observations

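A further list held the proteins that hold phosphorylated YAP1 in the cytoplasm or send it to degradation, with 11 of 11 genes at or above the 40th percentile. The medians were 0.24 with hairpin 2 and −0.01 with hairpin 5, or 0.09 and 0.00 over all 32 probe sets of the list, and none was 2-fold from the control at its brightest probe set. YWHAG, an adaptor that binds phosphorylated proteins, read 10.405 with hairpin 2 and 10.445 with hairpin 5, against 9.98 on the control array. CSNK1D, a kinase that primes YAP1 for degradation, read 7.34 with hairpin 2 and 7.50 with hairpin 5, against 7.05 on the control array. SFN, an adaptor of epithelial cells, read 11.77 with hairpin 2 and 11.35 with hairpin 5, against 11.88 on the control array. Averaged over all their probe sets, CSNK1D differed by 0.26 and 0.295 and SFN by 0.18 and −0.19, so SFN turned direction with hairpin 2. At dimmer probe sets YWHAE (210317_s_at) was 1.305 and 1.17 higher and YWHAZ (200641_s_at) 1.13 and 0.71 higher. Their brightest probe sets differed by 0.255 and 0.04, and by 0.03 and 0.29. Also higher for YWHAZ were 200638_s_at (0.825 and 0.335) and 200640_at (0.54 and 0.83), while the dim 214848_at differed by −0.075 and −0.07. Averaged over all its probe sets YWHAZ differed by 0.49 and 0.42, and YWHAE by 0.78 and 0.605.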
